A study of Mus musculus with 6 samples.

Results

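The genes described here are 55 that license origins of DNA replication and run the replication fork, taken by symbol from the 55487 genes of the expression table. RNA-seq was done on mouse bone marrow cells that the labels call long-term haematopoietic stem cells (LT-HSCs), in 3 Mmrn1-high and 3 Mmrn1-low libraries. Mmrn1 encodes multimerin 1, a secreted glycoprotein of platelets and endothelium. The labels give both groups the genotype Mmrn1-GFP type and part them by Mmrn1 status alone, and they state neither what drives the GFP nor how the cells were gated. The labels name no strain, age, sex or treatment. They also do not say whether the libraries of a group came from separate mice, so each p-value reflects library-to-library spread, and that spread may be only technical.

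Origins are licensed in G1, when the origin recognition complex, with Cdc6 and Cdt1, loads the ring-shaped MCM2-7 helicase on origins in an inactive form. Geminin, encoded by Gmnn, binds Cdt1 and blocks further loading once S phase has begun. At the start of S phase the Dbf4-dependent kinase and the cyclin E kinases let Cdc45 and GINS join MCM2-7 to form the active helicase, after which polymerase alpha-primase, the clamp and its loader, and polymerases delta and epsilon copy the strands. Many of these genes are E2F targets, and most LT-HSCs of adult marrow are known to rest outside the cell cycle.

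Library totals ran from 11595104 to 30909990 counts in Mmrn1-high and from 14288095 to 30180151 in Mmrn1-low. Mmrn1 itself stood at 8.82, 9.8 and 11.5 CPM, counts scaled to a common library size, in Mmrn1-high, against 5.65, 5.61 and 5.82 CPM in Mmrn1-low, in the order of the replicate numbers. That scaling used the trimmed mean of M values (TMM). The difference was 0.82 ± 0.12 on the log2 scale. Of the 15419 genes tested, 61.2% were called at an adjusted p under 0.05, with 30.7% higher and 30.5% lower in Mmrn1-high. Of 13 stem cell markers 11 were higher, and the 13 summed to 771 to 811 CPM in Mmrn1-high and 451 to 482 CPM in Mmrn1-low. Much of that sum was Kit, at a mean of 395 ± 5.17 CPM in Mmrn1-high and 329 ± 5.54 CPM in Mmrn1-low (SD, n = 3 each). The 9 granulocyte progenitor markers tested were all lower and summed to 5038 to 5110 CPM in Mmrn1-high and 27912 to 29176 CPM in Mmrn1-low, so the Mmrn1-low libraries held high levels of genes such as Mpo, the granule enzyme myeloperoxidase, at a mean of 12575 ± 434 CPM, against 1945 ± 20.6 CPM in Mmrn1-high (SD, n = 3 each). The 10 macrophage markers were all lower and summed to 36.6 to 38.1 CPM in Mmrn1-high and 238 to 239.5 CPM in Mmrn1-low, while 9 of 10 lymphoid progenitor markers were higher and the list summed to 2071 to 2080 CPM in Mmrn1-high and 848 to 879 CPM in Mmrn1-low. Erythroid progenitor markers were higher for 3 and lower for 7 of 14 genes tested, plasma cell markers higher for 1 and lower for 4 of 8, and mast cell and basophil markers higher for 5 and lower for 1 of 8. B cell markers were higher for 7 of 8 genes tested, T and NK cell markers for 2 of 3 and megakaryocyte markers for 6 of 7, with Gp6 at 0 in every library. In mean FPKM over the TMM factor, the stem cell markers in Mmrn1-high ran from 0.272 (Hoxb5) to 30.5 (Kit). Lymphoid progenitor markers ran from 0.664 (Rag1) to 167 (Dntt) there, and granulocyte progenitor markers from 11.9 (Gfi1) to 404 (Mpo). Whether the libraries held LT-HSCs alone was not tested. The part of these markers in the results below was not tested.

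All 55 replication genes were in the table and all passed the filter on low counts, with at least 235 counts in every library. Their median CPM was 85.5, against 24.1 over the 15419 genes tested, and 52 of them lay above that median. In Mmrn1-high, 12 were higher and 20 lower than in Mmrn1-low, and 23 did not pass the test. A gene was called at an adjusted p under 0.05 over all genes tested, and every log2 fold change is taken as Mmrn1-high over Mmrn1-low. The members called made up 58.2% of the list, beside 61.2% of all genes tested. Of the members, 21.8% were higher, beside 30.7% of all genes, and 36.4% were lower, beside 30.5%. Only 3 members (5.45%) were called with a log2 fold change of 0.5 or more in size, namely Orc3, Gmnn and Cdc45, all lower, whereas 34.3% of all genes passed that rule. The share of members called was thus close to the background, and the share with larger changes was lower than it. That background was not matched to the members for level, here or in the fold changes below.

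The replication genes differed little in size between the groups. Their median log2 fold change was -0.06, beside 0.01 for all genes, and their median absolute log2 fold change was 0.16, beside 0.37. Their values ran from -0.80 for Orc3 to 0.41 for Chaf1b. Of the 32 called, 20 changed by less than 1.25-fold, 9 of them higher and 11 lower. The groups did not overlap for 35 members (63.6%), beside 67.8% of all genes tested. Summed over the 55 genes, the level was 6832 to 6916 CPM in Mmrn1-high and 6849 to 6998 CPM in Mmrn1-low, and these ranges overlapped. Scaling by library size alone raised log2 fold changes over all genes by a median of 0.15, and 24 members (43.6%) were then called higher and 10 (18.2%) lower, beside 40.2% and 20.7% of all genes. Orc2, Cdc6, Gins1, Dbf4, Prim2, Pold2 and Rfc5 were no longer called lower under that scaling, and Mcm5, Pold1 and Tipin turned to values of 0.02 to 0.04 that were not called. In bulk RNA, fewer cells that express a gene and less RNA of it per cell cannot be told apart.

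**Figure D1:**
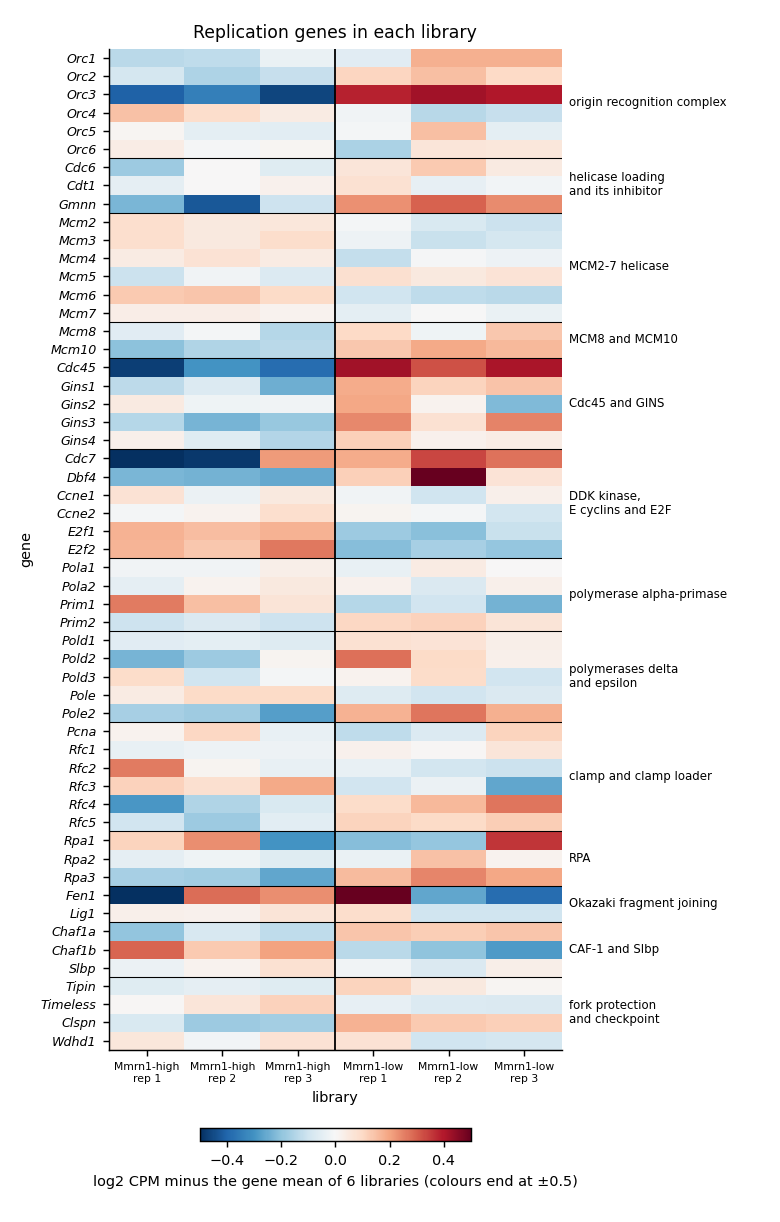
Colour shows log2 CPM minus the gene's mean over the 6 libraries (colours end at ±0.5) for each of the 55 replication genes, in role order, with the 3 Mmrn1-high libraries left of the line and the 3 Mmrn1-low libraries right of it. Orc3 and Cdc45 are blue in all 3 Mmrn1-high libraries and red in all 3 Mmrn1-low libraries, and Fen1 and Cdc7 differ between libraries of one group.

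**Figure D2:**
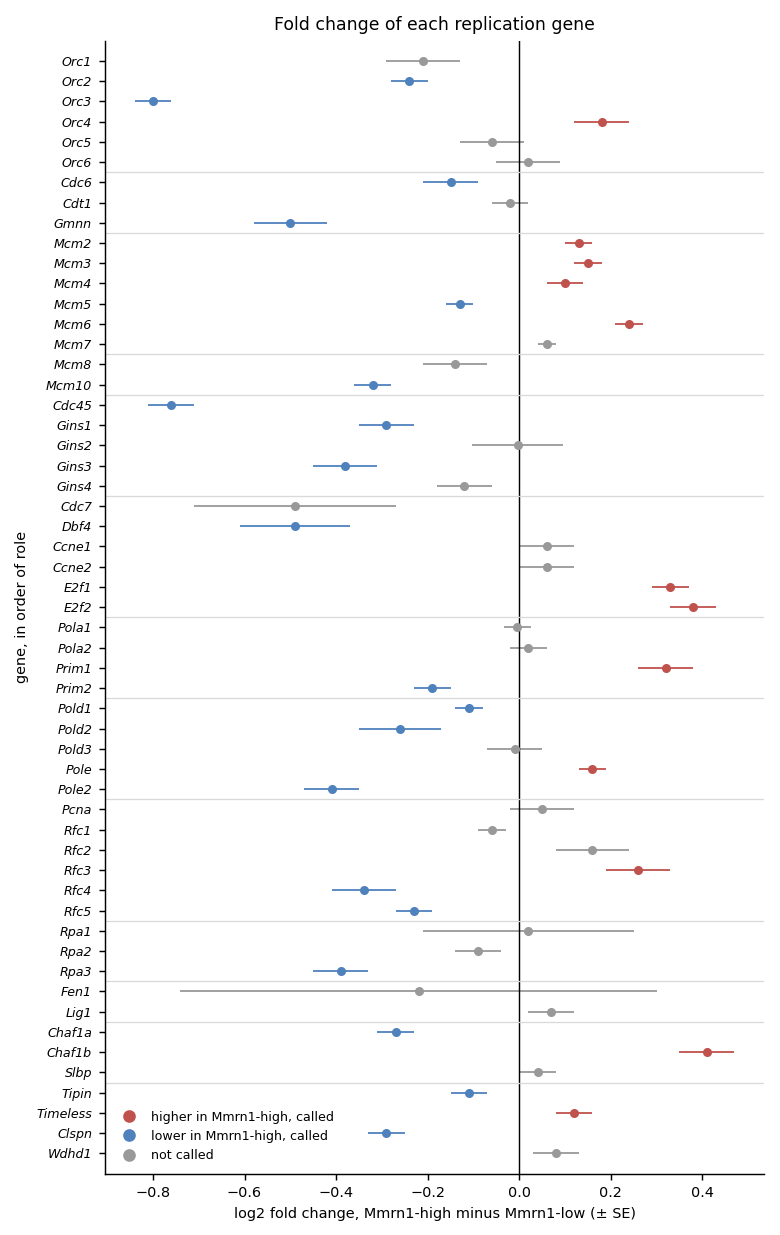
Points are log2 fold changes (Mmrn1-high minus Mmrn1-low) with standard errors for the 55 genes in role order, in red for the 12 called higher, in blue for the 20 called lower and in grey for the 23 not called. Most points lie near 0, and Orc3 at -0.80 and Cdc45 at -0.76 lie furthest from it.

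The promoter sequences of 5 members are shown because they hold an E2F motif and differ in direction. Mcm6 and Rfc3 were higher and Mcm5, Orc3 and Gins3 lower in Mmrn1-high. The sequences are the 160 bases before the RefSeq start, 5′ to 3′, on GRCm38.p6. An E2F motif stood in 40.0% of the members with a promoter window, counted over 300 bases and not over the 160 shown. Capitals mark the motifs searched on both strands, E2F (TTTCCCGC, TTTGGCGC, TTTCGCGC or TTTGCCGC) and, in Gins3, the cell cycle homology region or CHR (TTTGAA). In Mcm5 and Mcm6 2 E2F matches overlap and are written as 1 run.
Mcm6, chr1:128359706-128359865, minus strand: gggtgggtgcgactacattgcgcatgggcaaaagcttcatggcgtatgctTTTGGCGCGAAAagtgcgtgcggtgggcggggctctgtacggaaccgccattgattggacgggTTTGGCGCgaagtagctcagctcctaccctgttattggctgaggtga
Mcm5, chr8:75109349-75109508, plus strand: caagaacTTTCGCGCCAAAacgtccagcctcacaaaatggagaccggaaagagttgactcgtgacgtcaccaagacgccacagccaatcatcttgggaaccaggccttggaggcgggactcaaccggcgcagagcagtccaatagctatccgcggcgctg
Orc3, chr4:34614943-34615102, minus strand: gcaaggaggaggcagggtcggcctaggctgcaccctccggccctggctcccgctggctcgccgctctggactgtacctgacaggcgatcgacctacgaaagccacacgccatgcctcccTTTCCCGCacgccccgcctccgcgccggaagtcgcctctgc
Gins3, chr8:95633399-95633558, plus strand: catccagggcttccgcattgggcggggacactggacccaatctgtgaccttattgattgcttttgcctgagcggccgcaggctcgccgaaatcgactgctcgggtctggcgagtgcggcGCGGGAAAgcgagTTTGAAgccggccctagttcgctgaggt
Rfc3, chr5:151651209-151651368, minus strand: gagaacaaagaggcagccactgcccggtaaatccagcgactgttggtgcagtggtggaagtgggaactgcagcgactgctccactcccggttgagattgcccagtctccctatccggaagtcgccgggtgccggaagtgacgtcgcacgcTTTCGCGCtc

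The matches begin 110, 106 and 47 bases before the start in Mcm6, 153 and 149 before it in Mcm5, 41 before it in Orc3, 41 before it in Gins3 with the CHR 28 before it, and 10 before it in Rfc3. RefSeq promoter windows of 300 bases, 250 before the start and 50 after it, were found for 45 of the 55 members. An E2F motif stood in 18 of them (40.0%), beside 2.6% of the 27025 genes with a window and 1 of 29 mitotic genes (3.45%). CCAAT stood in 57.8% of members, 41.1% of all genes and 72.4% of mitotic genes. The CHR stood in 17.8% of members and 20.2% of all genes, and in 65.5% of mitotic genes. By call, the E2F motif was in 4 of 10 members higher, 7 of 16 lower and 7 of 19 not called in Mmrn1-high. The motif was thus found in members of each call. These are matches of letters in a window and not tested sites. Of the 55 member windows, 43 had their last 50 bases in a GENCODE M21 transcript of the gene. Those of Mcm6 and Mcm5 did not, since their RefSeq starts lie 41 and 60 bases upstream of the gene's start in the annotation. Those of Orc3, Gins3 and Rfc3 did. Their offsets were -2, -106 and -34 bases, where a negative value puts the RefSeq start inside the annotated gene. The marked matches of Gins3 and Rfc3 thus lie within the annotated gene and not upstream of it.

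Of the origin recognition complex, which marks origins for helicase loading, 2 of 6 genes were lower, 1 was higher and 3 were not called. Orc3, on chr4:34570796-34614944 of GRCm38, stood at 62.4, 65.2 and 60.1 CPM in Mmrn1-high, against 108, 110.4 and 109 CPM in Mmrn1-low. All 3 Mmrn1-high values lay below all 3 Mmrn1-low values, and the difference was 1.74-fold, at -0.80 ± 0.04 (SE) on the log2 scale, with an adjusted p of 1.43e-06. Orc2 was lower by a log2 of -0.24 ± 0.04 and Orc4 was higher by 0.18 ± 0.06. The call of Orc4 held without Mmrn1-high replicate 3 or Mmrn1-low replicate 1 but not without any of the other 4 libraries, where adjusted p ran up to 0.0977, against 0.0336 with all. Orc1, at -0.21 ± 0.08, passed only without Mmrn1-low replicate 1 (adjusted p 0.0157), and Orc5 and Orc6 were not called. Of the exon bases of Orc2, 29.8% are shared with Nif3l1 on the other strand, and the sources used here do not say whether counting used strand. With library size alone Orc2 was not called, at -0.09.

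In the helicase-loading group, Cdc6 and Gmnn were lower and Cdt1 was not called. Gmnn, the Cdt1 inhibitor, lies on chr13:24751845-24761923 and stood at 48.8, 42.7 and 53.2 CPM in Mmrn1-high, against 67, 70.1 and 67.3 CPM in Mmrn1-low, and the groups did not overlap. Its log2 fold change was -0.50 ± 0.08, with an adjusted p of 7.23e-04. Cdt1 was at 99 ± 2.2 CPM in Mmrn1-high and 100.2 ± 4.38 CPM in Mmrn1-low (SD, n = 3 each), at a log2 fold change of -0.02 ± 0.04. Cdc6 was at -0.15 ± 0.06 and its call was lost in 5 of the 6 fits that left out a library, and kept only without Mmrn1-high replicate 2 (adjusted p 0.0385). The ratio of Cdt1 to Gmnn in FPKM was 0.759, 0.895 and 0.726 in Mmrn1-high, against 0.602, 0.53 and 0.562 in Mmrn1-low. This is a difference of 0.49 on the log2 scale by a two-sided exact permutation test with p = 0.1, the smallest that 3 against 3 can give.

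All 6 MCM2-7 genes had groups that did not overlap, as had 67.8% of all genes tested, with Mcm2, Mcm3, Mcm4 and Mcm6 higher, Mcm5 lower (but at 0.02 with library size alone) and Mcm7 not called, so that 5 of 6 were called, beside 61.2% of all genes. Mcm6, on chr1:128331590-128359664, was the most abundant member per length and stood at 684, 688 and 668 CPM in Mmrn1-high, against 584, 573 and 569 CPM in Mmrn1-low. Each Mmrn1-high value exceeded every Mmrn1-low value, at a log2 fold change of 0.24 ± 0.03 and an adjusted p of 7.50e-05. Mcm5, given here because it runs the other way and chosen after its values were seen, stood at 446, 475 and 459 CPM in Mmrn1-high, against 508, 498 and 504 CPM in Mmrn1-low. Its log2 fold change was -0.13 ± 0.03, with an adjusted p of 0.00591. Mcm2 was at 0.13 ± 0.03, Mcm3 at 0.15 ± 0.03 and Mcm4 at 0.10 ± 0.04. The Mcm4 call was lost without Mmrn1-high replicate 2 or replicate 3 (adjusted p 0.0592 and 0.0702). Mcm7, at 0.06 ± 0.02, missed the threshold with an adjusted p of 0.0847. Mcm6 and Mcm3 held their call in every alternative tried. As shares of the summed FPKM of Mcm2 to Mcm7, Mcm6 made up 26.1 ± 0.269% in Mmrn1-high and 23.5 ± 0.234% in Mmrn1-low, and Mcm5 made up 18.8 ± 0.485% in Mmrn1-high and 21.9 ± 0.211% in Mmrn1-low (SD, n = 3 each).

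Cdc45, the helicase's activating partner, was the most strongly lower member after Orc3. Cdc45 lies on chr16:18780447-18811987. It stood at 56.6, 63.8 and 60.2 CPM in Mmrn1-high, against 105, 97.8 and 104 CPM in Mmrn1-low. Every Mmrn1-high value lay below every Mmrn1-low value, and the log2 fold change was -0.76 ± 0.05, 1.69-fold lower with an adjusted p of 7.68e-06. Of its exon bases, 5.96% are shared with Ufd1 on the other strand. Relative to the mean FPKM of Mcm2 to Mcm7, Cdc45 was 17.3%, 19.2% and 18.4% in Mmrn1-high, against 33.7%, 31.6% and 33.9% in Mmrn1-low. Of the GINS subunits, which join Cdc45 and MCM2-7 in the active helicase, Gins1 (-0.29 ± 0.06) and Gins3 (-0.38 ± 0.07) were lower. Gins3 kept its call in every alternative tried, whereas Gins1 lost it with library size alone (-0.14, adjusted p 0.0667). Gins2 at -0.0037 ± 0.10 and Gins4 at -0.12 ± 0.06 were not called. Gins2 shares 67.3% of its exon bases with Gse1 on the other strand. Mcm10, which helps load Cdc45, stood at 59.2, 61.5 and 62.1 CPM in Mmrn1-high, against 74.8, 77.8 and 76.4 CPM in Mmrn1-low. The groups did not overlap, and its log2 fold change was -0.32 ± 0.04. Mcm8, a relative of the MCM helicase genes used in repair, was not called at -0.14 ± 0.07.

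**Figure D3:**
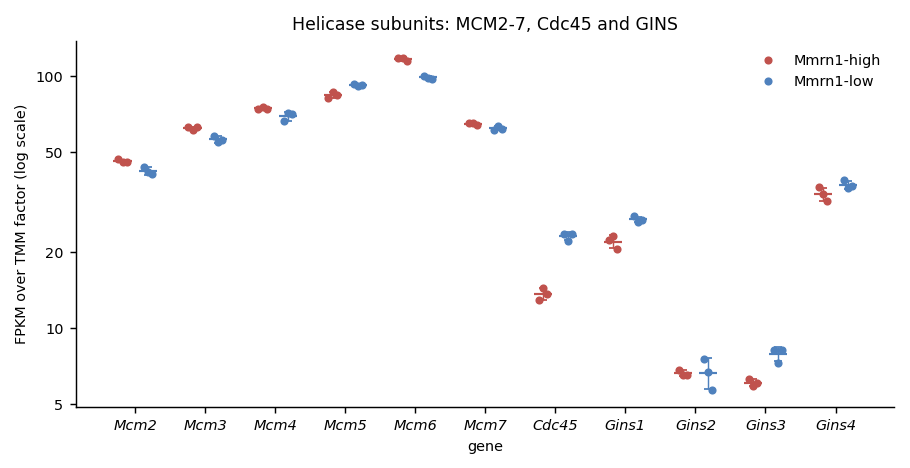
Points are the authors' FPKM divided by the TMM factor (log axis) for the 11 helicase genes, Mmrn1-high (red, left) and Mmrn1-low (blue, right), with bars for the mean ± SD of 3 libraries. Cdc45 lies lower in all 3 Mmrn1-high libraries, and Mcm6 lies higher in them.

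Of the Dbf4-dependent kinase, the cyclins E and the activating E2F genes, E2f1 and E2f2 were higher, Dbf4 was lower and Cdc7, Ccne1 and Ccne2 were not called. E2f1, a transcription factor that activates S-phase genes, stood at 79.4, 78.2 and 79.3 CPM in Mmrn1-high, against 62, 60.9 and 65.1 CPM in Mmrn1-low, and the groups did not overlap. Its log2 fold change was 0.33 ± 0.04 and its adjusted p 2.23e-04. E2f2 was at 0.38 ± 0.05. Dbf4, the activator of the kinase and chosen after its values were seen, stood at 53.2, 53 and 52.2 CPM in Mmrn1-high, against 67.8, 90.2 and 65.5 CPM in Mmrn1-low, where replicate 2 was high. Its log2 fold change was -0.49 ± 0.12, and it was -0.34 with an adjusted p of 9.84e-04 without that library. The Dbf4 call was lost when any of the 3 Mmrn1-high libraries was left out, at adjusted p 0.0514 to 0.0538. Cdc7, the kinase, was also chosen after its values were seen. It stood at 31.9, 32.9 and 53.3 CPM in Mmrn1-high, against 52.2, 57.9 and 55.5 CPM in Mmrn1-low. Its Mmrn1-high replicate 3 lay among the Mmrn1-low values, the log2 fold change of -0.49 ± 0.22 did not pass (adjusted p 0.108), and without that library it was -0.77 with an adjusted p of 6.95e-05. DESeq2 called Cdc7 lower with all libraries, at -0.49 and an adjusted p of 0.0135, and the other alternatives with all libraries did not (adjusted p 0.0653 to 0.246). The ratio of Ccne2 to Ccne1 in FPKM did not separate the groups, with a difference of -0.0012 on the log2 scale and a two-sided exact permutation p of 1 among 3 libraries a group.

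Among the polymerase genes, Prim1 and Pole were higher and Prim2, Pold1, Pold2 and Pole2 lower (Prim2, Pold1 and Pold2 not with library size alone). Of polymerase alpha-primase, which starts each new strand with an RNA primer, Pola1 stood at 146, 146 and 151 CPM in Mmrn1-high, against 144, 152 and 148 CPM in Mmrn1-low. The groups overlapped and it was not called, at -0.0040 ± 0.03. Prim1, the catalytic primase, was higher by 0.32 ± 0.06, Prim2 was lower by -0.19 ± 0.04 (-0.04 with library size alone, adjusted p 0.536) and Pola2 was at 0.02 ± 0.04. Pold2, the accessory subunit of lagging-strand polymerase delta, stood at 72.4, 74.9 and 85.9 CPM in Mmrn1-high, against 103, 90.8 and 86.6 CPM in Mmrn1-low. The highest Mmrn1-high and the lowest Mmrn1-low value nearly met, the log2 fold change was -0.26 ± 0.09, and the call was lost without Mmrn1-high replicate 1 or 2 or Mmrn1-low replicate 1 or 2, with adjusted p up to 0.12. Pold1 was lower by -0.11 ± 0.03, but was at 0.03 with library size alone. Its call was also lost at 5 CPM or more in 3 libraries (adjusted p 0.0685) and with no filter on low counts (0.089). Pole, catalytic subunit of leading-strand polymerase epsilon, was higher by 0.16 ± 0.03 and its partner Pole2 was lower by -0.41 ± 0.06. Pole2 shares 8.5% of its exon bases with Gm49384 on the same strand. Pold3 was not called at -0.01 ± 0.06.

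Of the sliding clamp and its loader, Rfc3 was higher, Rfc4 and Rfc5 were lower and Pcna, Rfc1 and Rfc2 were not called. Pcna, the clamp that holds polymerases on DNA, stood at 295, 313 and 284 CPM in Mmrn1-high, against 267, 278 and 315 CPM in Mmrn1-low. The groups overlapped, the log2 fold change was 0.05 ± 0.07, and without Mmrn1-low replicate 3 it was 0.14 with an adjusted p of 0.0343. Rfc3 was at 0.26 ± 0.07, Rfc4 at -0.34 ± 0.07 and Rfc5 at -0.23 ± 0.04, each a loader subunit. Rfc5 was not called with library size alone (-0.08, adjusted p 0.144), and Rfc4 was not called in the limma fits on FPKM without a TMM factor (adjusted p 0.0533 to 0.0945). Of their exon bases, Rfc4 shares 12.7% with Eif4a2 and Rfc5 10.7% with Wsb2, both on the other strand. Rfc1 at -0.06 ± 0.03 and Rfc2 at 0.16 ± 0.08 had groups that did not overlap, but did not pass.

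Of RPA, which coats single-stranded DNA, Rpa3 was lower by -0.39 ± 0.06 and Rpa1 and Rpa2 were not called. Rpa2 stood at 113, 115 and 112 CPM in Mmrn1-high, against 114, 129 and 118 CPM in Mmrn1-low, at -0.09 ± 0.05 with overlapping groups. Rpa1 and Fen1, each given in every library and chosen after their values were seen, varied within groups. Rpa1 stood at 212, 231 and 159.9 CPM in Mmrn1-high and 169.6, 172 and 252 CPM in Mmrn1-low, so that replicate 3 was the lowest of all 6 libraries in Mmrn1-high and the highest in Mmrn1-low. Its log2 fold change was 0.02 ± 0.23. Fen1, the flap nuclease of Okazaki fragment maturation, stood at 60.9, 127 and 123 CPM in Mmrn1-high and 197, 87.3 and 80.3 CPM in Mmrn1-low. The log2 fold change was -0.22 ± 0.52 and its sign turned without Mmrn1-high replicate 1 (0.06) or Mmrn1-low replicate 1 (0.32). Of the Fen1 exon bases, 84.2% are shared with Tmem258 and the antisense gene Gm10143 on the other strand, so a count of Fen1 is uncertain where strand is not used, and their part was not tested. Fen1 and Cdc7 are the 2 members with a within-group ratio of highest to lowest CPM of at least 1.5, a ratio that 6.66% of the 8089 genes at or above the lowest member CPM reach. Lig1, the ligase that seals fragments, stood at 231, 230.3 and 237 CPM in Mmrn1-high, against 241, 212 and 212 CPM in Mmrn1-low, and was not called at 0.07 ± 0.05. Without Mmrn1-low replicate 1, Lig1 was at 0.14 with an adjusted p of 0.00638.

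**Figure D4:**
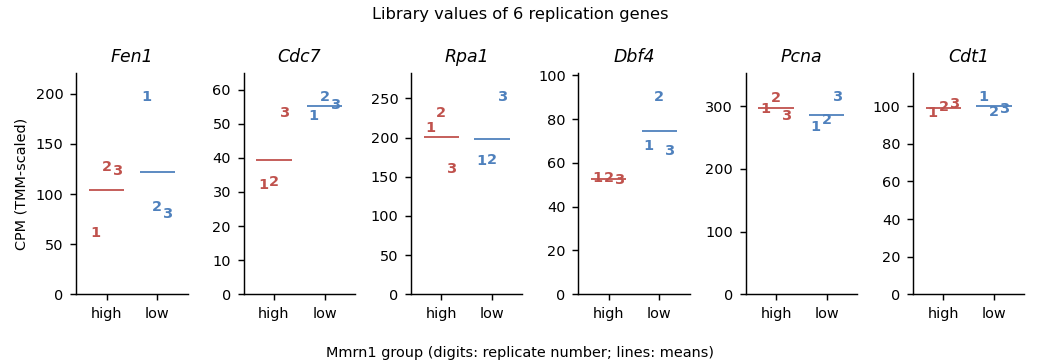
Digits mark CPM of each library (replicate number) and lines the group means for 6 replication genes, Mmrn1-high left of Mmrn1-low in each panel, each axis starting at 0. Fen1, Cdc7, Rpa1 and Dbf4 have 1 library apart from the other 2 in at least 1 group, and the groups of Pcna and Cdt1 overlap.

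Among chromatin assembly and histone genes, Chaf1b was higher, Chaf1a was lower and Slbp was not called. Chaf1a and Chaf1b are the large and middle subunits of CAF-1, which places histones behind the fork. Chaf1a stood at 141, 153 and 148 CPM in Mmrn1-high, against 178, 176 and 178 CPM in Mmrn1-low. The groups did not overlap and the log2 fold change was -0.27 ± 0.04, though 52.5% of the exon bases of Chaf1a are shared with Ubxn6 on the other strand. Chaf1b was higher by 0.41 ± 0.06, at 75.6 ± 4.21 CPM in Mmrn1-high and 56.8 ± 2.9 CPM in Mmrn1-low (SD, n = 3 each), and held its call in every alternative tried. Slbp, which binds the stem-loop of histone mRNA, was at 0.04 ± 0.04.

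Of the fork-protection genes, Timeless was higher, Tipin (not with library size alone) and Clspn were lower and Wdhd1 was not called. Tipin, partner of Timeless, stood at 103, 104 and 103 CPM in Mmrn1-high, against 116, 111 and 108 CPM in Mmrn1-low. The groups did not overlap at a log2 fold change of -0.11 ± 0.04, but the Tipin call held only without Mmrn1-low replicate 3 (adjusted p 0.0346) among the 6 fits that left out a library, and the value was 0.04 with library size alone. Timeless was at 0.12 ± 0.04, and lost its call without Mmrn1-high replicate 3, Mmrn1-low replicate 2 or Mmrn1-low replicate 3 (adjusted p 0.0576 to 0.0925). Clspn, a mediator of the checkpoint kinase Chek1, was lower by -0.29 ± 0.04. Wdhd1, at 0.08 ± 0.05, passed without Mmrn1-low replicate 1 (0.14, adjusted p 0.0317) and with library size alone (0.23, adjusted p 0.00563).

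Levels of single genes are compared with each other per length, as TMM-scaled FPKM. The medians and sums in CPM above, and the count of members over the median, carry no length correction. Mcm6 was highest at 117 ± 1.83 in Mmrn1-high and 98.9 ± 1.4 in Mmrn1-low (SD, n = 3 each). Pcna was at 84.7 ± 4.09 in Mmrn1-high and 81.6 ± 7.22 in Mmrn1-low, and Mcm5 at 84.3 ± 2.63 in Mmrn1-high and 92.1 ± 0.95 in Mmrn1-low, so that the levels of these next 2 genes lay within their spread in Mmrn1-high. Orc4 was lowest, at 3.07 ± 0.112 in Mmrn1-high and 2.7 ± 0.117 in Mmrn1-low. The gene length behind the authors' FPKM was up to 2.89 times the summed exon length in GENCODE M21, with a median ratio of 1.38 over the members, so levels of different members inherit that length.

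Other genes of these pathways were counted by list. The share called was 68.8% for the other licensing and firing factors, 68.4% for the other fork genes, 56.2% for the other E2F and pocket protein genes, 78.6% for deoxynucleotide supply and 80% for checkpoint genes, beside 61.2% of all genes. Of 16 other licensing and firing factors tested, 3 were higher and 8 lower, and the median was -0.12 on the log2 scale. Ccna2, cyclin A2 of S phase, was at 165 ± 13 CPM in Mmrn1-high and 325 ± 15.9 CPM in Mmrn1-low (SD, n = 3 each), at -0.98 ± 0.06. Ticrr, which brings Cdc45 to origins, was at -0.53 ± 0.04 and Ddb1, a subunit of the ligase that degrades Cdt1, at -0.34 ± 0.02. Of 19 other fork genes, 2 were higher and 11 lower, with a median of -0.14. Top2a, the type II topoisomerase that untangles DNA, was at -0.81 ± 0.02, Asf1b, a histone chaperone, at -0.77 ± 0.05 and Top1 at -0.35 ± 0.03. Of 16 other E2F and pocket protein genes, 4 were higher and 5 lower, with a median of -0.04. Mybl2, a factor for late cell cycle genes, was at -1.13 ± 0.04, the repressor E2f8 at -0.63 ± 0.04 and the pocket protein partner E2f4 at -0.36 ± 0.03. Of 14 deoxynucleotide supply genes, 5 were higher and 6 lower, with a median of -0.11. Rrm2, the regulated ribonucleotide reductase subunit, was at -0.95 ± 0.03, Rrm1 at -0.44 ± 0.03 and Samhd1, which breaks down deoxynucleotides, at 0.69 ± 0.03. Of 10 checkpoint genes, 2 were higher and 6 lower, with a median of -0.13. Rad17, loader of the checkpoint clamp, was at -0.66 ± 0.06, Hus1, a subunit of that clamp, at -0.49 ± 0.05 and Etaa1, an activator of the kinase ATR, at 0.40 ± 0.06.

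Of 34 mitotic genes tested, 33 were lower and none was higher, and their median was -1.04 on the log2 scale (97.1% called, beside 61.2% of all genes). They summed to 2640 to 2705 CPM in Mmrn1-high and 5546 to 5565 CPM in Mmrn1-low. Ube2c, the E2 of the anaphase-promoting complex, was at 62.5 ± 0.998 CPM in Mmrn1-high and 234 ± 6.46 CPM in Mmrn1-low (SD, n = 3 each), at -1.91 ± 0.03. Cdca8, of the chromosomal passenger complex, was at -1.07 ± 0.03 and Cdk1, the mitotic kinase, at -1.23 ± 0.04. Of 7 replicative histone genes tested by symbol, 2 were lower and 5 not called (28.6% called, beside 61.2% of all genes). The 2 lower were Hist1h2ao (-0.53 ± 0.04) and Hist1h2ap (-0.54 ± 0.10), near-identical copies whose counts are uncertain. The 5 not called had means of only 1.79 to 4.43 CPM in Mmrn1-high. The search by older Hist symbols found 9 genes in the table, and histone genes under other symbols were not counted. The median of the mitotic list and that of the 55 replication genes, at -0.06, were not tested against each other.

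**Figure D5:**
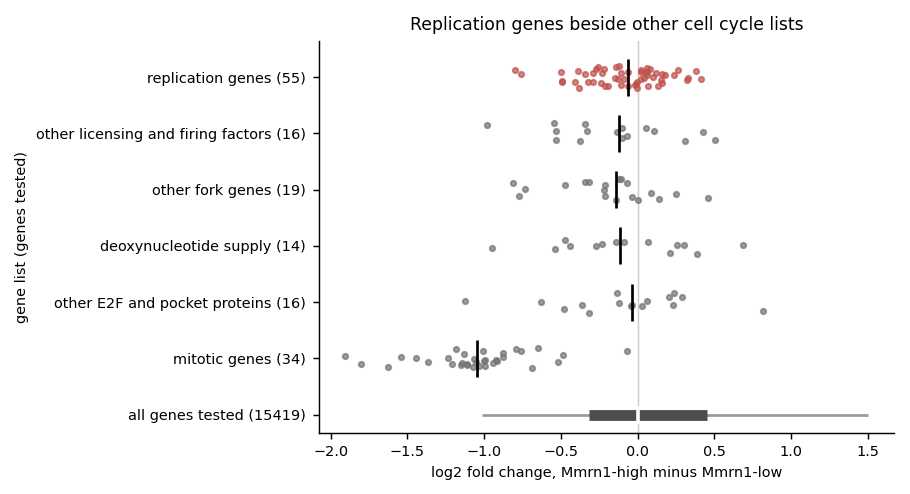
Points are log2 fold changes (Mmrn1-high minus Mmrn1-low) for the replication genes (red) and for 5 other cell cycle lists (grey), with black lines at list medians. The bar for all 15419 genes tested spans the quartiles (thick) and the 5 to 95 percentiles (thin). Of the mitotic points, 32 of 34 were called at or below -0.5, and 3 of the 55 replication genes were.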

How the data were processed

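RNA was sequenced from 3 Mmrn1-high and 3 Mmrn1-low libraries with a stranded mRNA kit, per the labels' protocols. HISAT2, StringTie, edgeR and CASAVA 1.8 are named beside GRCm38 in the submitters' processing notes, with no role or order. The deposited table gives read counts per gene and, in other columns, FPKM made by the authors, per the file headers. The sources used here do not say whether counting used strand. In the annotation, 21 of the 55 members share exon bases with another gene, 17 of them only with genes on the other strand. Beside the members given above, the shares were largest for Ccne2 (17.4%), Rfc2 (15.1%), Mcm7 (12.6%) and Orc1 (10.8%). No per-sample column was left unused. Counts were tested with edgeR 4.0.16 (TMM, filterByExpr, robust quasi-likelihood F test, group only) in R 4.3.3, with Benjamini-Hochberg adjustment over all 15419 genes. DESeq2 1.42.0 and limma 3.58.1 gave alternatives. FPKM was divided by the TMM factor for levels. Ratios were compared by two-sided exact permutation. Promoters came from RefSeq on GRCm38.p6. The test was checked on simulated data. Replicates had correlations of 0.9863 to 0.9888 in log2 CPM. Chi-square per gene between libraries of a group had means of 6.31 to 10.6 and medians of 0.783 to 1.19, and no pair was counted as 1 library.

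The members and lists were chosen with earlier results of these data known. All 55 members are named, with library values for members called at a log2 fold change of 0.5 or more in size, and, in a group with none, for its most abundant member per length. Library values of Mcm5, Dbf4, Cdc7, Rpa1 and Fen1 are given outside this rule. Up to 3 genes of smallest p were named from each pathway list. From the marker lists, Mpo, Gp6 and the genes at the ends of the level ranges were named. The lists comprise other licensing, fork, E2F, deoxynucleotide, checkpoint, mitotic and histone genes, and markers of stem, granulocyte, macrophage and lymphoid cells. The report also counts erythroid, B, plasma, T and NK, megakaryocyte and mast cell markers.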

Additional observations from a re-analysis of the deposited data

How the results depend on the processing

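The 16 alternatives (15 planned and FPKM divided by the TMM factor, added after seeing the data) kept the direction and call of 9 higher members (Mcm2, Mcm3, Mcm6, E2f1, E2f2, Prim1, Pole, Rfc3 and Chaf1b) and 7 lower ones (Orc3, Gmnn, Mcm10, Cdc45, Gins3, Pole2 and Rpa3). Settings without a composition correction, library size alone and FPKM, moved the balance of the list. Library size alone called 24 members higher and 10 lower (median 0.09), and 6201 and 3193 of all genes. Limma on log2(FPKM + 1) called 23 higher and 9 lower (median 0.08), and 4770 and 3019 of all genes. With a pseudocount of 0.1 it called 23 and 9 (median 0.09), and 4748 and 3011, and with no FPKM filter 21 and 7 (median 0.08), and 5870 and 3020. All genes thus moved the same way as the list. FPKM divided by the TMM factor gave 10 higher and 19 lower (median -0.05), and 3448 and 4465, so the balance moved back with that factor. At 5 CPM or more in 3 libraries 13 members were higher and 16 lower (median -0.01), and 3867 and 3787 of all genes. Cdc6, Pold1, Pold2 and Tipin lost their call there and Mcm7 gained one. With no filter on low counts 10 were higher and 17 lower (median -0.04), and 5036 and 4370 of all genes. Orc4, Cdc6, Mcm4, Pold1 and Tipin lost their call there. Library size alone and the 3 FPKM fits without the TMM factor each lost the calls of Orc2, Cdc6, Gins1, Dbf4, Prim2, Pold2 and Rfc5, and the FPKM fits also that of Rfc4. With no FPKM filter Chaf1a (adjusted p 0.0512) and Clspn (0.0661) were lost too. Those 4 settings gained Mcm7, Ccne1, Ccne2, Pola1, Pola2, Rfc2, Lig1, Slbp and Wdhd1, all as higher. All but the fit with no FPKM filter also gained Cdt1 and Rfc1 as higher, and library size alone gained Pcna (adjusted p 0.0422). DESeq2 called 9 higher and 19 lower, gaining Cdc7 and losing Orc4, Cdc6, Mcm4, Tipin and Timeless. RLE size factors called 12 and 20.

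Members whose sign turned with library size alone, and with FPKM at either pseudocount, were Orc5 (0.09, 0.07 and 0.09), Cdt1 (0.13, 0.12 and 0.13), Mcm5 (0.02 in each), Mcm8 (0.01 in each), Gins2 (0.15, 0.13 and 0.15), Gins4 (0.03 in each), Pola1 (0.14 in each), Pold1 (0.03 in each), Pold3 (0.14, 0.13 and 0.14), Rfc1 (0.09, 0.08 and 0.09), Rpa2 (0.06 in each) and Tipin (0.04, 0.03 and 0.04). With no FPKM filter the same 12 turned, at Orc5 0.07, Cdt1 0.12, Mcm5 0.02, Mcm8 0.01, Gins2 0.13, Gins4 0.03, Pola1 0.14, Pold1 0.03, Pold3 0.13, Rfc1 0.08, Rpa2 0.06 and Tipin 0.03. With no filter on low counts Gins2 (0.02), Pola1 (0.01) and Pold3 (0.01) turned, at 5 CPM Cdt1 (0.03), Gins2 (0.05), Pola1 (0.05) and Pold3 (0.04), and with FPKM divided by the TMM factor Gins2 (0.0008).

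Over the fits that left out 1 library, the sign turned for Ccne2 to Ccne1 (-0.06 to 0.04), Orc6 (-0.04 to 0.07), Cdt1 (-0.04 to 0.03), Gins2 (-0.10 to 0.11), Pola1 (-0.02 to 0.02), Pola2 (-0.01 to 0.06), Pold3 (-0.05 to 0.05), Rpa1 (-0.08 to 0.24) and Fen1 (-0.45 to 0.32). None of these was called with all libraries. Of the members called with all libraries, Orc4, Cdc6, Mcm4, Dbf4, Pold2, Tipin and Timeless lost their call in at least 1 such fit.

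Same-numbered libraries did not deviate together (r 0.0426, -0.0785 and 0.0286). These correlations show no shared deviation but cannot exclude that the numbers pair the libraries. With a replicate block, 11 members were higher and 18 lower, Gins2 was at 0.0037, Orc4, Pold2, Tipin and Timeless lost their call and Rfc2 gained one. The cause of the changes between settings was not tested beyond the TMM factor.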
